A study of Arabidopsis thaliana with 8 samples.

Results

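Cytochromes P450 are heme-containing monooxygenases, and in plants they form one of the largest enzyme families. The set described here was every nuclear protein-coding gene whose symbol in the RefSeq TAIR10.1 annotation reads CYP, a family number, a subfamily letter and a gene number, with CYP86A1 and CYP86B1 left out. It held 217 of the 27444 nuclear protein-coding genes, in 40 families, and its members were followed through the called regions of 5 chromatin marks and of histone H3. The nuclei came from epidermal root cells of Arabidopsis thaliana that form no hairs, called non-hair cells. Regions of H3K27me3 lay on 135 of the 217 genes, and 43 genes carried at least 1000 bp of this mark.

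Plant P450s usually sit in the membrane of the endoplasmic reticulum and take electrons from a P450 reductase. They carry out committed steps in the making and breakdown of hormones, sterols, phenylpropanoids, cutin and wax lipids and defence compounds. The A-type families grew mainly by tandem duplication and hold many enzymes of specialized metabolism, whereas several non-A-type families act in hormone and sterol pathways. H3K27me3 is laid down by Polycomb complexes and is known from genes that are silent or restricted to certain tissues. H3K27ac and H3K4me3 are known from the 5' parts of transcribed genes, H3K4me1 from the bodies of transcribed genes, and the variant H2A.Z from gene starts and from the bodies of responsive genes.

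The 8 samples came from plants of the Col-0 accession that carried a constitutive ACT2p:BirA biotin ligase and a biotin-accepting nuclear envelope tag (NTF) under the GLABRA2 promoter, which is active in non-hair cells. Tagged nuclei were captured by the INTACT method from fully differentiated root segments of 1.25 cm, with 3 g of root tissue per sample, at an age of 10 days. All samples shared this genotype, medium with 1% sucrose, 20 °C and days of 16 h light and 8 h dark. There was 1 library for each of the 6 targets, and the other 2 samples were inputs that were not analysed here. No target had a replicate, the deposited lists held positions without scores, and the sequencing depth is unknown, so counts and medians stand here beside the same values over all genes, with no test.

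A gene is called marked below when regions of a target covered at least 200 bp between its annotated start and end. Many regions in each list shared 1 smallest size, which was 179 bp for H3K27ac, 183 bp for H2A.Z, 189 bp for H3K4me3, 211 bp for H3, 241 bp for H3K27me3 and 254 bp for H3K4me1. A single smallest region could therefore mark a gene for the last 3 targets but not for the first 3, and cover is compared between genes within a target rather than between targets. H3K27me3 had an input of its own, so the mark and any difference in its preparation cannot be told apart. H3K27ac marked 5 and H3K27me3 marked 4 of 7 non-hair markers, where the shares over all protein-coding genes were 56.6% and 41.9%. GL2, whose promoter drove the tag, carried 412 bp of H3K27ac and 1311 bp of H3K27me3, and WER, a regulator of non-hair fate, carried 518 bp of H3K27ac and no H3K27me3. All 5 root hair markers were marked by H3K27me3, with RHD6 at 1348 bp and EXPA7 at 482 bp, as were the 3 shoot and flower regulators AG, STM and FLC. H3K27ac also marked the root hair marker COBL9, with 284 bp, and FLC, with 591 bp, and no other gene of these lists. Regions do not measure expression, and remaining nuclei of other cell types cannot be told apart from 2 marks within the same cells.

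H3K27me3 and H2A.Z marked more P450 genes than the genome-wide share, and H3K4me1, H3K4me3 and H3K27ac marked fewer. H3K27me3 marked 135 of 217 P450 genes, which is 62.2%, against 41.9% of all protein-coding genes. H2A.Z marked 123 members, or 56.7%, against 38.2% of all genes. H3K27ac marked 104 members, or 47.9%, against 56.6% of all genes. H3K4me1 marked 80 members, or 36.9%, against 52.1% of all genes. H3K4me3 marked 32 members, or 14.7%, against 25.7% of all genes. H3 itself marked 91 members, or 41.9%, against 42.6% of all genes, close to the background share at this minimum of 200 bp. With at least 400 bp required, H3 marked 19 members against 14.8% of all genes, below the background. Among the genes of like length described next, that share was 11.9%, nearer to the family.

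A longer gene can meet more regions, so genes of like length were counted as well. P450 genes had a median length of 2052 bp against 2078 bp over all genes, with a middle range of 1867 to 2477 bp. Among the 5292 protein-coding genes within that range, the shares marked were 43.8% for H3K27me3, 42.6% for H2A.Z, 65.9% for H3K27ac, 58.5% for H3K4me1, 30.3% for H3K4me3 and 43.8% for H3. The distance between the family and its background was thus in the same direction for the 5 marks at matched length. P450 genes had a median of 2 exons and genes of like length had 4. Among genes with 1 or 2 exons, H3K27me3 marked 58.5% of 118 members and 46.8% of 1472 genes of like length, and among those with 3 or more exons it marked 66.7% of 99 members and 42.7% of 3820 genes.

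**Figure D1:**
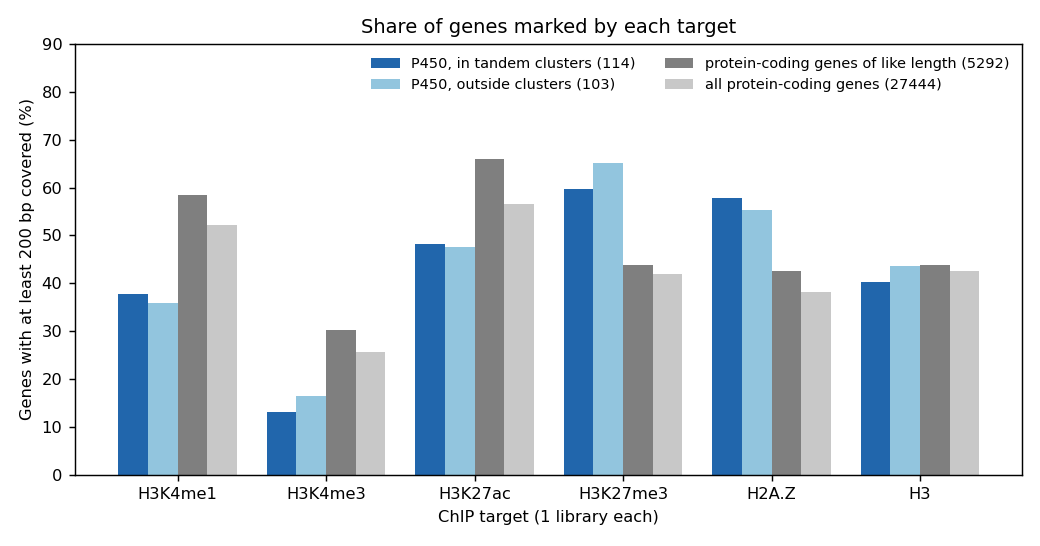
Share of genes marked (vertical axis, percent of genes with at least 200 bp covered) by each of the 6 targets (horizontal axis), as bars for the 114 P450 genes in tandem clusters, the 103 outside clusters, the 5292 genes of like length and all 27444 protein-coding genes. Both P450 bars stand above both others for H3K27me3 and H2A.Z and below both for H3K4me1, H3K4me3 and H3K27ac.

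The stretches of H3K27me3 on P450 genes were also long. In the marked members the median cover was 748 bp, against 427 bp in all marked genes and 445 bp in marked genes of like length. The mark covered at least 1000 bp in 43 members, 19.8% of the family, against 6.05% of all genes and 7.75% of genes of like length. It covered at least 50% of the gene in 34 members, or 15.7%, against 8.62% of all genes and 6.78% of genes of like length. At least 400 bp of H3K27me3 lay on 104 members, against 21.8% of all genes. At that minimum H3K27ac marked 70 members, against 40.2% of all genes, and H3K4me1 marked 36, against 35.7%. For H3K27ac, in contrast, the median cover in marked genes was 519 bp in the family and 528 bp over all genes, and for H2A.Z it was 419 bp and 420 bp. The length of H3K27me3 cover on marked P450 genes thus stood above that of marked genes at large, while the length of H3K27ac and H2A.Z cover did not.

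At the minimum of 200 bp, H3K27me3 without H3K27ac was the most frequent state of a P450 gene. This state was found on 82 members, or 37.8%, against 19.6% of all genes. A single smallest region of H3K27me3 reached that minimum and one of H3K27ac did not. Genes counted as without H3K27ac could thus hold a region of it, as CYP79F1 did with 179 bp. With 1 bp required, H3K27me3 was on 140 members, against 45% of all genes, and H3K27ac on 135, against 68.3%. Combined states were not counted at 1 bp. Both marks lay on 53 members, or 24.4%, against 22.3% of all genes and 25.5% of genes of like length. H3K27ac without H3K27me3 was found on 51 members, or 23.5%, against 34.3% of all genes and 40.4% of genes of like length, and neither mark lay on 31 members, or 14.3%, against 23.8% of all genes and 15.8% of genes of like length. H3K27me3 together with H2A.Z lay on 79 members, or 36.4%, against 19.1% of all genes. H3K4me1 was rarer on members with H3K27me3, at 27.4% of 135, than on members without it, at 52.4% of 82. In all protein-coding genes these shares of H3K4me1 were 50.5% and 53.3%, and in genes of like length, where the gap had the same direction, they were 50.0% and 65.1%. H3K4me3 went with H3K27ac: it marked 31 of the 104 members with H3K27ac and 1 of the 113 without it, CYP82F1, named here because it stood alone, which carried 497 bp of H3K4me3. In all genes H3K4me3 likewise marked 40.5% of those with H3K27ac and 6.49% of those without, and in genes of like length 40.8% and 10.0%.

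At least 1 target marked 205 members, or 94.5%, against 87.8% of all genes and 95.9% of genes of like length, so the family was not above its background at matched length. All 6 targets marked 4 members, the sterol demethylase CYP51G1, CYP705A13, CYP89A9 and CYP81F3, an enzyme that modifies indole glucosinolates. No base of any list fell on 6 members, CYP78A6, CYP705A22, CYP705A23, CYP705A32, CYP86C2 and CYP71B20, which is 2.76% of the family against 7.45% of all genes and 2.42% of genes of like length. Sequence shared with other loci can leave reads without a unique place. Of these 6, 17.0% of the 50-base words of CYP705A32 and 18.8% of those of CYP71B20 occurred elsewhere in the genome. The part of shared sequence in the missing regions was not tested. CYP86C2 lies wholly within another annotated gene.

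**Figure D2:**
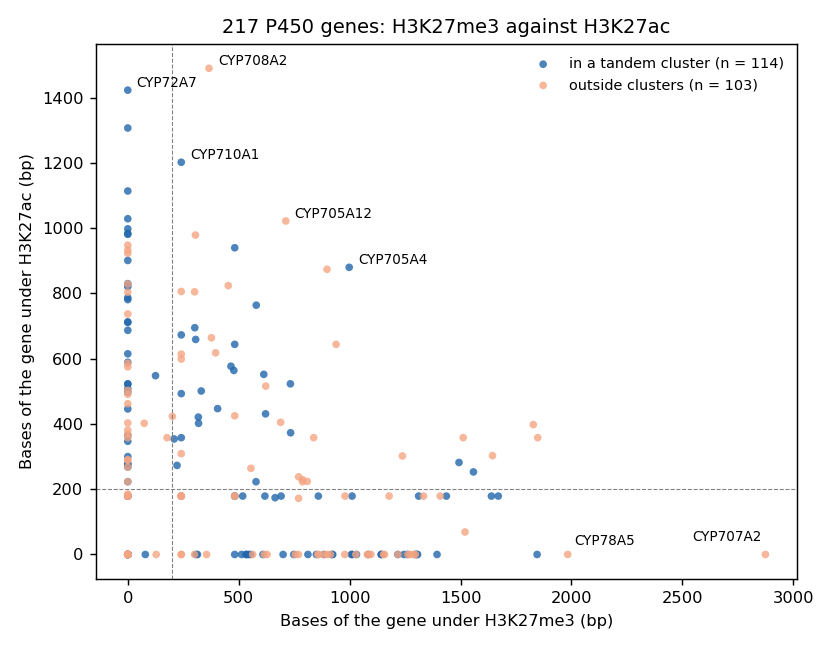
Bases of H3K27me3 (horizontal axis, bp) against bases of H3K27ac (vertical axis, bp) on each of the 217 P450 genes, each point being 1 gene, coloured by whether it lies in a tandem cluster, with dashed lines at 200 bp. CYP707A2, with 2874 bp of H3K27me3, lies on the bottom line and CYP72A7, with 1423 bp of H3K27ac, on the left one, while CYP706A3 and CYP708A3, with 1848 bp and 1828 bp of H3K27me3, lie above the line of 200 bp with 358 bp and 398 bp of H3K27ac.

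Members with the most cover differed by target. After CYP707A2, the most H3K27me3 lay on CYP78A5 with 1983 bp, which is 97.3% of this organ growth gene, CYP706A3 with 1848 bp, CYP79F2 with 1845 bp and CYP708A3 with 1828 bp. CYP706A3 and CYP708A3 were also among the 5 members with the most H2A.Z, at 941 bp and 935 bp. The others were CYP81D1 with 985 bp, CYP702A8 with 937 bp and CYP76C3 with 900 bp, and of these 5 only CYP76C3, with 79 bp of H3K27me3, was not marked by H3K27me3. The most H3K27ac lay on CYP708A2, CYP72A7, CYP705A21 with 1307 bp, CYP710A1 with 1202 bp and CYP72A15 with 1114 bp. CYP705A21 was also in the first 5 for H3K4me1, at 1301 bp, and for H3, at 923 bp. The most H3K4me1 lay on CYP705A15 with 1522 bp, a gene of 5826 bp that overlaps the pseudogene CYP705A16 over 30.1% of its length, and CYP708A1 with 1260 bp, CYP97B3 with 1138 bp and CYP721A1 with 980 bp completed the first 5 with CYP705A21. The most H3K4me3 lay on CYP710A1 with 845 bp, CYP705A4 with 599 bp, CYP705A12 with 585 bp, and CYP705A8 and CYP81F3 with 567 bp each. The most H3 lay on CYP705A21, CYP708A1 with 745 bp, CYP735A2 with 683 bp, CYP705A15 with 645 bp and CYP702A6 with 625 bp.

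Families differed in their share of marked members. Of the 17 families with 4 or more members, which together held 180 genes, families 79, 702 and 710 had H3K27me3 on every member, at 7 of 7, 6 of 6 and 4 of 4. In family 77 it marked 0 of 4 members, and CYP77A9 carried 177 bp, below the minimum. The CYP79 enzymes turn amino acids into oximes, and their H3K27me3 cover ran from 622 bp on CYP79B2 to 1845 bp on CYP79F2 with a median of 1512 bp, the highest of the 17 families. Next came family 78, which holds regulators of organ size, with a median of 1088 bp and 5 of 6 members marked, and family 702 with a median of 955.5 bp. Families 82 and 76 had medians of 850 bp and 826.5 bp, with 4 of 5 and 7 of 8 members marked. Family 96, related to the mid-chain alkane hydroxylase of wax, had 10 of 12 members marked and a median of 584.5 bp. H3K27ac marked 0 of 8 members of family 76, 0 of 6 of family 78, 0 of 5 of family 82 and 1 of 12 of family 96.

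Family 72 was the reverse. H3K27ac marked 8 of its 9 genes, with a median of 787 bp and a range of 179 to 1423 bp, H3K4me1 marked 7, and H3K27me3 marked 2. The CYP706 family had H3K27ac on 6 of 7 genes and H3K27me3 on 4. Family 94, whose members act on fatty acids and on jasmonate, had H3K27ac on 5 of 6 and H3K27me3 on 2. Family 77, with enzymes of cutin synthesis, had H3K27ac on 3 of 4. In these 4 families H3K27ac was thus on more members than H3K27me3.

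The 2 largest families were mixed. In family 71, H3K27me3 marked 30 of 48 genes, H2A.Z 33, H3K27ac 18, H3 16, H3K4me1 12 and H3K4me3 5. Its subfamilies differed: H3K27me3 marked 13 of 16 CYP71A genes with a median of 1048.5 bp, and 17 of 32 CYP71B genes with a median of 361.5 bp. H3K27ac marked 4 of the 16 CYP71A genes and 14 of the 32 CYP71B genes. In the CYP705 family, H3K27ac marked 15 of 24 genes, H3K27me3 14, H3K4me1 and H3 11 each, H2A.Z 9 and H3K4me3 6. In family 81, H3K27ac marked 10 of 16 genes and H3K27me3 9, but without regions of the smallest size these counts were 10 and 4. The remaining families stood between these, with H3K27me3 on 4 of 8 genes of family 86, 4 of 6 of family 89 and 3 of 4 of family 707. In the 23 smaller families, H3K27me3 marked 20 of 37 genes, H3K27ac 20 and H2A.Z 21.

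A-type and non-A-type genes had similar shares of marked members. H3K27me3 marked 61.0% of 141 A-type genes and 64.5% of 76 non-A-type genes. H3K27ac marked 45.4% and 52.6%. In marked genes, H3K27me3 covered a median of 844 bp in A-type and 555 bp in non-A-type members.

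**Figure D3:**
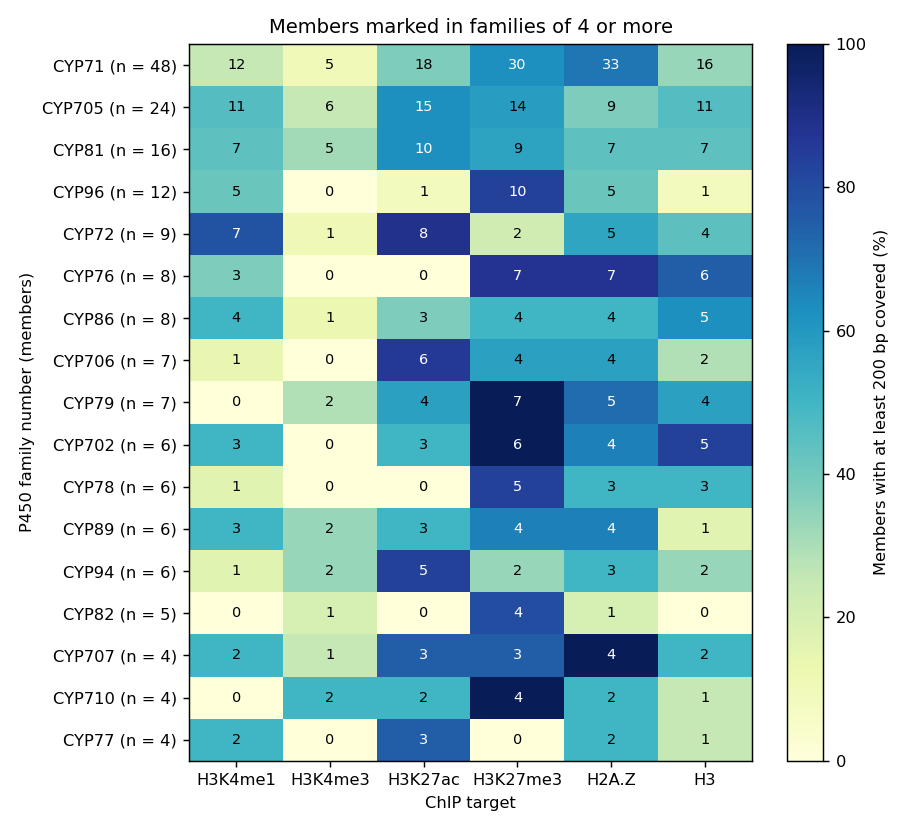
Share of members marked by each of the 6 targets (colour, percent of members with at least 200 bp covered) in the 17 P450 families with 4 or more members, with the number of members in each row label and the number marked printed in each cell. H3K27me3 is at 100% in families 79, 702 and 710 and at 0% in family 77, and H3K27ac is at 0% in families 76, 78 and 82.

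Members with known roles were grouped by pathway in 15 lists that held 67 members. In glucosinolate synthesis, H3K27me3 marked 8 of 9 members. CYP81F1, also on that list, was found neither as a member's symbol nor as a synonym of a non-member, and is not counted. Synonyms of members were not searched, so it could be a member under another symbol. CYP79F1 and CYP79F2, which act on chain-elongated methionine, carried 1639 bp and 1845 bp of H3K27me3 with 179 bp and 0 bp of H3K27ac. CYP79B2 and CYP79B3, which act on tryptophan, carried 622 bp and 1512 bp of H3K27me3 together with 516 bp and 358 bp of H3K27ac. The next enzymes in the route take up the oximes, and they were unlike each other: CYP83A1 carried 1297 bp of H3K27me3 and no H3K27ac, and CYP83B1 carried 575 bp of H3K27ac and no H3K27me3. CYP81F2, CYP81F3 and CYP81F4, which modify the indole ring, carried both marks, with 806 bp, 523 bp and 577 bp of H3K27ac and 241 bp, 733 bp and 465 bp of H3K27me3. Without regions of the smallest size, which is 241 bp for H3K27me3, that mark remained on 1 of these 3 CYP81F genes. The tryptophan side of the pathway thus carried H3K27ac on each of these 6 members. CYP79F1, CYP79F2 and CYP83A1 of the methionine side were not marked by H3K27ac. However, CYP81F4 is overlapped over 99.6% of its length by another protein-coding gene, so its regions cannot be assigned to CYP81F4 alone.

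The 250 bases before the start of CYP79F2 and CYP79F1 are shown because H3K27me3 entered both windows, over 162 bp and 164 bp. They were read from the RefSeq TAIR10.1 genome on the plus strand, at chr1:5604794-5605043 and chr1:5608432-5608681, and capitals mark bases inside an H3K27me3 region.
CYP79F2: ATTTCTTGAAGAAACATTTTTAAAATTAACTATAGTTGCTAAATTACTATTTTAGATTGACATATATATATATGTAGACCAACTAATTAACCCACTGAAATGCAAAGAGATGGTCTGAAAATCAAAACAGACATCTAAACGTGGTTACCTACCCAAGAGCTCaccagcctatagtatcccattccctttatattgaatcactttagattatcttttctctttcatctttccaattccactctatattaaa
CYP79F1: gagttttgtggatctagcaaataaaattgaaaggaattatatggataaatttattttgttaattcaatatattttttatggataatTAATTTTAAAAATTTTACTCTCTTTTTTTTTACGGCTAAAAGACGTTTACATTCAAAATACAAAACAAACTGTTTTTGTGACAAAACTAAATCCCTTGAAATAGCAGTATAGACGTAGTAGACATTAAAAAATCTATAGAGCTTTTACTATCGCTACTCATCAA
The covered bases lay in the far part of the window for CYP79F2 and next to the gene for CYP79F1.

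In the camalexin route and related indoles, H3K27me3 marked 3 of 4 members. CYP71A12 and CYP71A13, which make the nitrile intermediate, carried 1085 bp and 1408 bp, and CYP82C2, which hydroxylates an indole carbonyl nitrile, carried 924 bp. CYP71B6, which turns indole acetonitrile toward carboxylic acid derivatives, carried 829 bp of H3K27ac, 471 bp of H3K4me3 and no H3K27me3. CYP82C4, an enzyme of coumarin synthesis that is induced when iron is scarce, carried 812 bp of H3K27me3 and no H3K27ac.

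Among triterpene genes, H3K27me3 marked 6 of 7 and H3K27ac 5 of 7, not always on the same genes. CYP708A2 and CYP705A5, which act on thalianol in roots, carried 1490 bp and 874 bp of H3K27ac with 366 bp and 898 bp of H3K27me3. CYP705A12 of the marneral gene cluster carried 1022 bp of H3K27ac and was also marked by H3K27me3, and CYP71A16, which acts on marneral and marnerol, carried 381 bp of H3K27ac and no H3K27me3. CYP705A1, which cleaves arabidiol, carried 1142 bp of H3K27me3 and no H3K27ac. CYP716A1, of a family that oxidizes triterpene scaffolds, carried 857 bp of H3K27me3 and no H3K27ac, and CYP716A2 carried 241 bp and 309 bp. Among genes for volatile terpenes, H3K27ac marked 0 of 5 and H3K27me3 4 of 5, with 861 bp on CYP82G1, which makes homoterpenes, and 1031 bp on CYP76C2.

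Among hormone genes, the CYP707A paralogs differed in state, whereas the CYP735A pair was alike. CYP707A enzymes inactivate abscisic acid by hydroxylation. CYP707A2 carried 2874 bp of H3K27me3 and no H3K27ac, and CYP707A4 carried 1238 bp and 302 bp. CYP707A1 carried 979 bp of H3K27ac and 305 bp of H3K27me3, and CYP707A3 carried 948 bp of H3K27ac and no H3K27me3. H2A.Z marked all 4 of these paralogs, with 262 to 366 bp. In jasmonate turnover, CYP94B1, CYP94B3 and CYP94C1 carried 824 bp, 664 bp and 737 bp of H3K27ac, and H3K27me3 was present on the first 2 with 453 bp and 377 bp. CYP735A1 and CYP735A2, which hydroxylate cytokinins, carried 886 bp and 1218 bp of H3K27me3 and no H3K27ac. CYP711A1, which is MAX1 of strigolactone synthesis, carried 369 bp of H3K27ac and no H3K27me3. In gibberellin metabolism, CYP88A3, an ent-kaurenoic acid oxidase, carried 491 bp of H3K27ac and 938 bp of H3K4me1 and no H3K27me3, while CYP714A2, which oxidizes gibberellin precursors, carried 700 bp of H3K27me3 and no H3K27ac. Its neighbour CYP714A1 carried both, with 318 bp of H3K27me3 and 421 bp of H3K27ac. The 3 brassinosteroid members CYP90D1, CYP72C1 and CYP724A1 carried 240 bp, 396 bp and 355 bp of H3K27me3.

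Sterol genes were marked by H3K27me3 in 5 of 5 cases, by 241 to 664 bp, but CYP51G1 and CYP710A1 by 1 region of the smallest size, 241 bp, alone. CYP710A enzymes desaturate the sterol side chain. CYP710A1 and its neighbour CYP710A2 carried 1202 bp and 695 bp of H3K27ac and 845 bp and 486 bp of H3K4me3, whereas CYP710A3 and CYP710A4 carried 174 bp and 0 bp of H3K27ac, no H3K4me3, and 414 bp and 626 bp of H2A.Z. The coding sequences of CYP710A3 and CYP710A4 were 95.8% identical, and 19.4% of the 50-base words of CYP710A3 occurred elsewhere in the genome.

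H3K27me3 marked 0 of 4 phenylpropanoid members and 0 of 2 carotenoid members, of which CYP97B3 carried 74 bp, below the minimum. These pathways were not free of the mark, because it lay on listed genes with other symbols, which are not members. In the phenylpropanoid and flavonoid list all 3 such genes were marked, C4H with 553 bp, FAH1 with 428 bp and TT7 with 263 bp. LUT1 of the carotenoid list carried 482 bp. CYP98A3, the coumaroyl ester hydroxylase of lignin synthesis, carried 179 bp of H3K27ac, 1 smallest region, and CYP84A4 carried 804 bp. CYP98A8 and CYP98A9, known from phenolamide synthesis in pollen, carried 268 bp and 522 bp, but each is overlapped over at least 50% by another annotated gene. For the cutin, wax and pollen wall list, H3K27me3 marked 5 of 9 and H2A.Z 7 of 9. CYP77A6, which acts in cutin synthesis of flowers, carried 933 bp of H3K27ac, and CYP96A15, the mid-chain alkane hydroxylase of stem wax, carried 1288 bp of H3K27me3. CYP86A8, a fatty acid hydroxylase, carried both, with 223 bp of H3K27ac and 788 bp of H3K27me3. Of the organ growth genes, CYP78A5, CYP78A8 and CYP78A7 carried 1983 bp, 1262 bp and 1080 bp of H3K27me3, CYP78A9 carried 241 bp, and CYP78A6 lay under no region.

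The role lists also held 15 P450 genes that the annotation names otherwise and that are not members. H3K27me3 marked 7 of these 15 and H3K27ac 8. The brassinosteroid genes differed among themselves. ROT3, BR6OX1 and BR6OX2 carried 1219 bp, 274 bp and 286 bp of H3K27ac and no H3K27me3, DWF4 carried 179 bp of H3K27ac and 241 bp of H3K27me3, and CPD and BAS1 carried neither. The gibberellin genes GA3 and KAO2 carried 976 bp and 1505 bp of H3K27ac. C4H of the phenylpropanoid route carried 537 bp of H3K27ac and 553 bp of H3K27me3.

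Tandem clusters held 114 of the 217 members, a cluster being 2 or more genes of the same family number with at most 1 other protein-coding gene between neighbours. There were 34 clusters from 16 families, of which 19 held 2 genes and 12 held 4 or more. Of the 80 neighbouring pairs, 74 lay on the same strand. Clustered and single genes were marked at similar rates. H3K27me3 marked 59.6% of clustered and 65.0% of single members, H3K27ac 48.2% and 47.6%, and H2A.Z 57.9% and 55.3%. In the 12 clusters of 4 or more, H3K27me3 marked 32 of 67 genes, or 47.8%.

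Neighbours in a cluster shared their state in a larger share of pairs than both other kinds of pair did for every target except H2A.Z. For H3K27me3, 56 of 80 neighbouring pairs, or 70.0%, had both genes or neither marked. The share was 52.4% in the 1630 pairs of the same family outside a shared cluster, and 57.7% in the 27439 pairs of adjacent protein-coding genes. The share of pairs with both genes marked by H3K27me3 was 41.3% in clusters and 40.1% in other pairs of the same family. The share with neither marked was 28.8% and 12.3%, so the gap between those 2 kinds of pair lay mainly in unmarked pairs. The 1630 pairs join all genes of a family outside a shared cluster, so family 71, with 48 genes, weighs more there than among neighbours. Family make-up and clustering therefore cannot be told apart in this comparison. For H3K27ac the shares in the same state were 68.8%, 53.7% and 57.6%, for H3K4me1 61.3%, 57.9% and 55.9%, for H3K4me3 83.8%, 75.9% and 64.1%, and for H3 60%, 53.5% and 53.4%. For H2A.Z they were 55.0%, 53.9% and 55.7%, so clustered neighbours stood below adjacent genes. A shared state also depends on how often a target marks genes. For H3K4me3, neither gene was marked in 80%, 73.7% and 56.3% of these kinds of pair, and both in 3.75%, 2.15% and 7.78%. Pairs share genes and no replicate exists, so these shares are descriptions. The coding sequences of neighbours were 63.3% to 97.5% identical, with a median of 83.2%. That median was 83.2% in pairs with the same H3K27me3 state and 83.8% in pairs with different states.

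For H3K27me3 and H3K27ac, whole clusters were uniform about as often as not. For H3K27me3, 15 clusters had every gene marked, 3 had none and 16 were mixed, and among the 12 clusters of 4 or more these counts were 2, 1 and 9. For H3K27ac, 7 clusters had every gene marked, 10 had none and 17 were mixed. In the 19 clusters of 2 genes, the counts were 11, 2 and 6 for H3K27me3 and 6, 7 and 6 for H3K27ac. Of all pairs of adjacent protein-coding genes, 57.7% shared their H3K27me3 state and 57.6% their H3K27ac state. For H2A.Z 22 of the 34 clusters were mixed, for H3 19, for H3K4me1 18 and for H3K4me3 9.

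The 2 large clusters with H3K27me3 throughout were CYP71A21 to CYP71A26 and CYP705A1 to CYP705A4. In the first, at chr3:17876571-17892847, H3K27me3 covered 544 bp of CYP71A26, 1311 bp of CYP71A25, 1493 bp of CYP71A24, 1394 bp of CYP71A23, 859 bp of CYP71A22 and 209 bp of CYP71A21 in genome order. The inner genes thus carried more than those at both ends, and CYP71A21 lay just above the minimum of 200 bp. In the second, H3K27me3 covered 1142 bp, 1297 bp, 1436 bp and 998 bp of CYP705A1 to CYP705A4. CYP705A4, at the edge of that cluster, also carried 880 bp of H3K27ac and 599 bp of H3K4me3, and the other 3 carried at most 179 bp of H3K27ac.

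The large cluster without H3K27me3 was CYP71B2, CYP71B28, CYP71B29 and CYP71B7 at chr1:4459002-4469033. Its genes carried 821 bp, 713 bp, 498 bp and 589 bp of H3K27ac. The CYP72A cluster of 8 genes came close to this state. H3K27ac covered 1423 bp of CYP72A7, 901 bp of CYP72A8, 644 bp of CYP72A9, 223 bp of CYP72A10, 179 bp of CYP72A11, 787 bp of CYP72A13, 984 bp of CYP72A14 and 1114 bp of CYP72A15. The genes at both ends carried the most and the middle genes the least, and CYP72A9 was the gene with H3K27me3, at 482 bp.

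**Figure D4:**
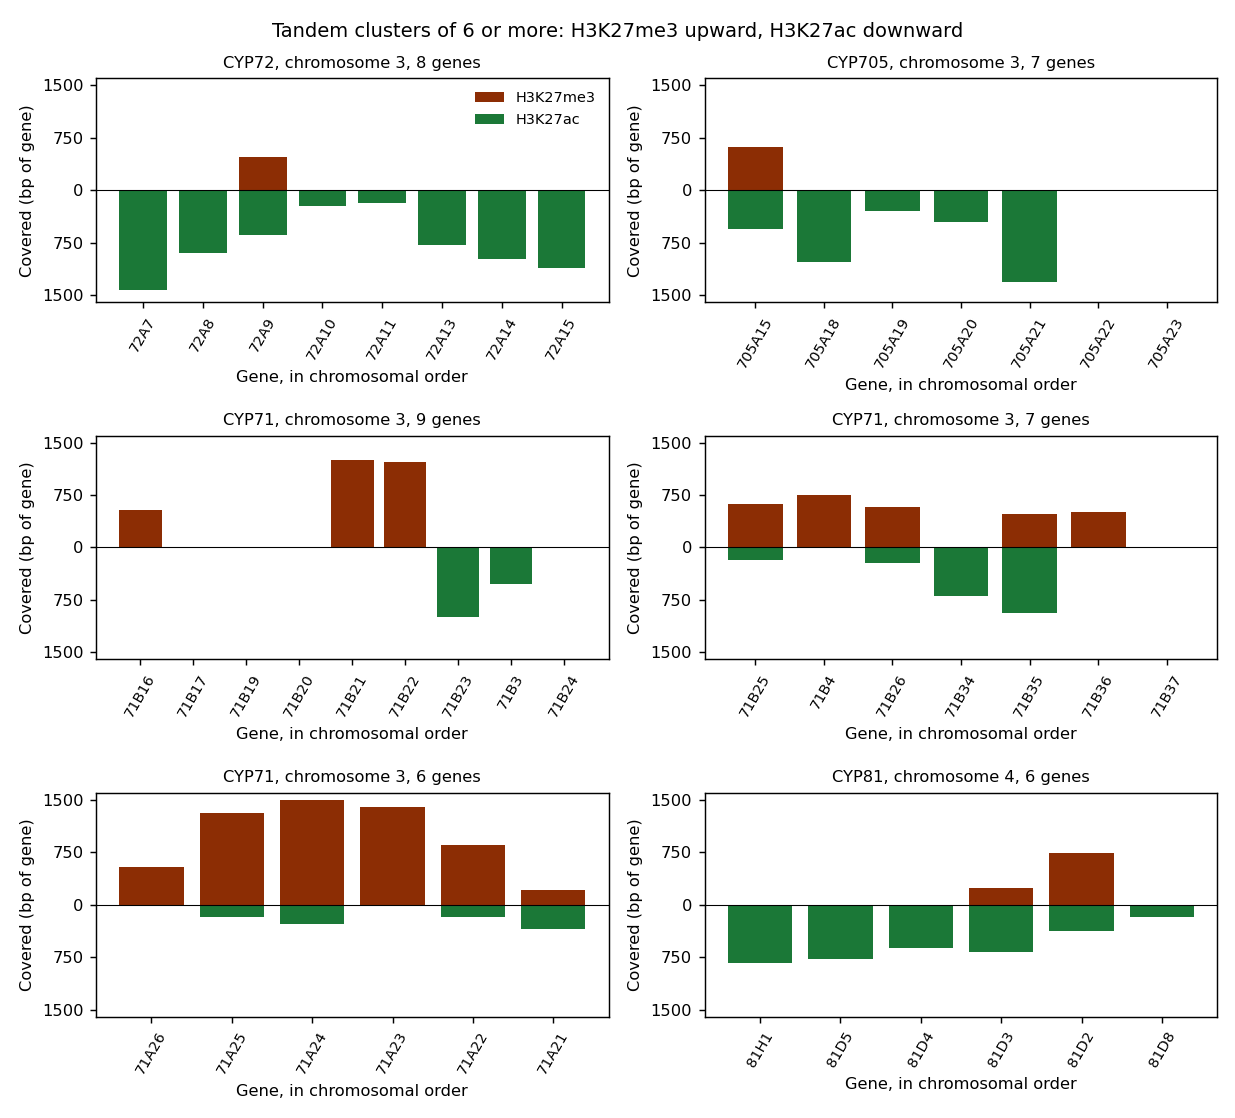
Bases of each gene under H3K27me3 (bars upward, bp) and under H3K27ac (bars downward, bp) in the 6 tandem clusters of 6 or more genes, with genes in chromosomal order along the horizontal axis. The CYP71A21 to CYP71A26 panel has H3K27me3 on 6 of 6 genes, the CYP72A panel has it on CYP72A9, and the panel from CYP71B16 to CYP71B24 passes from H3K27me3 on CYP71B22 to H3K27ac on CYP71B23.

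Mixed clusters changed state from one gene to the next. In the 9-gene cluster from CYP71B16 to CYP71B24, H3K27me3 marked CYP71B16 with 533 bp, CYP71B21 with 1245 bp and CYP71B22 with 1217 bp, and H3K27ac marked CYP71B23 with 998 bp and CYP71B3 with 523 bp. CYP71B17, CYP71B19, CYP71B20 and CYP71B24 had neither. CYP71B19 and CYP71B20 were 96.2% identical, and 20.1% of the 50-base words of CYP71B19 occurred elsewhere; the part of this in their cover was not tested. In the 7-gene cluster from CYP71B25 to CYP71B37, H3K27me3 marked 5 genes, CYP71B25, CYP71B4, CYP71B26, CYP71B35 and CYP71B36, and CYP71B26 and CYP71B35 carried 223 bp and 940 bp of H3K27ac as well. CYP71B34, between marked genes, carried 687 bp of H3K27ac and no H3K27me3, and CYP71B37 had neither mark.

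In the 7-gene cluster from CYP705A15 to CYP705A23, H3K27ac marked CYP705A15, CYP705A18, CYP705A19, CYP705A20 and CYP705A21, with 300 bp to 1307 bp, and CYP705A22 and CYP705A23 lay under no region. H3K27me3 marked CYP705A15 there, with 613 bp. In the 4-gene cluster of CYP705A28, CYP705A30, CYP705A32 and CYP705A33, H3K27me3 covered 518 bp, 241 bp, 0 bp and 319 bp. In the cluster from CYP81H1 to CYP81D8, H3K27ac marked CYP81H1, CYP81D5, CYP81D4, CYP81D3 and CYP81D2 with 373 bp to 830 bp, and H3K27me3 marked CYP81D3 with 241 bp and CYP81D2 with 734 bp. In the CYP706A4 to CYP706A7 cluster, H3K27ac fell on CYP706A4, CYP706A5 and CYP706A6 with 981 bp, 278 bp and 501 bp, and H3K27me3 on CYP706A6 and CYP706A7 with 331 bp and 241 bp.

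In the CYP76C cluster, H3K27me3 covered 482 bp of CYP76C4, 691 bp of CYP76C1, 1031 bp of CYP76C2 and 79 bp of CYP76C3. H2A.Z covered 183 bp, 509 bp, 711 bp and 900 bp of the same genes, so CYP76C3 had the least H3K27me3 and the most H2A.Z. In the CYP96A cluster, H3K27me3 covered 1303 bp of CYP96A9, none of CYP96A10 and CYP96A11, and 554 bp of CYP96A12. H3K4me1 covered 954 bp of CYP96A10 and 620 bp of CYP96A11 and none of the outer genes, so both marks alternated over 4 genes.

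The neighbours that differed most in H3K27me3 were CYP71A15 with 1306 bp and CYP71A14 with none. CYP71A14 carried 711 bp of H3K27ac and CYP71A15 none, while H2A.Z covered 505 bp and 523 bp. The space of 1973 bp between them was under H3K27me3 over 1004 bp. Among the most different pairs were also CYP96A9 and CYP96A10, CYP71B20 and CYP71B21, and CYP76C2 and CYP76C3, with no H3K27ac on either gene. CYP71B22 and CYP71B23, on opposite strands, differed like CYP71A15 and CYP71A14. They carried 1217 bp and 0 bp of H3K27me3 and 0 bp and 998 bp of H3K27ac. Their 250-base upstream windows are printed because the state of the gene and of its window went together in both pairs, with capitals for bases inside an H3K27me3 region, from the RefSeq TAIR10.1 genome. The windows lie at chr5:8597762-8598011 on the minus strand for CYP71A15, chr5:8603322-8603571 on the minus strand for CYP71A14, chr3:9588999-9589248 on the plus strand for CYP71B22 and chr3:9595284-9595533 on the minus strand for CYP71B23.
CYP71A15: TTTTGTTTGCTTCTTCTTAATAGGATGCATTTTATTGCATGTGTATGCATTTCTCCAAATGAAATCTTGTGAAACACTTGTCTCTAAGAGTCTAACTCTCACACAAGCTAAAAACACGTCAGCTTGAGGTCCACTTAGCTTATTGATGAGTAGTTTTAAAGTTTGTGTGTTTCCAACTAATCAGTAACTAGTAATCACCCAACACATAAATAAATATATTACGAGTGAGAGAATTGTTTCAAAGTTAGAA
CYP71A14: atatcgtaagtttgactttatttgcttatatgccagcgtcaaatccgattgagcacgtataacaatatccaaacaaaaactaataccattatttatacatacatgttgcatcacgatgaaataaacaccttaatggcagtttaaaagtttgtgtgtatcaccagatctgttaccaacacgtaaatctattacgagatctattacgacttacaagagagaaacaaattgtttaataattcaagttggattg
CYP71B22: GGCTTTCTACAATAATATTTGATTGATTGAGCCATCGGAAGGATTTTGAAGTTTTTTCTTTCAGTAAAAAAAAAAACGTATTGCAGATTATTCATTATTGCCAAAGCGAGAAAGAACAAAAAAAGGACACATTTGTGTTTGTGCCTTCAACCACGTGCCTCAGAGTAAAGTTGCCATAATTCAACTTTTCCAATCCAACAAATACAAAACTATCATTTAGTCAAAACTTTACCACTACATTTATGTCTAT
CYP71B23: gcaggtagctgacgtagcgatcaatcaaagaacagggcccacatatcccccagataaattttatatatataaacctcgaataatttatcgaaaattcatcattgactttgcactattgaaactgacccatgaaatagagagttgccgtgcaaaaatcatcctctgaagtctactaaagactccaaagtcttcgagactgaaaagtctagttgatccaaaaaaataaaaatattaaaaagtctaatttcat
All 250 bases were under H3K27me3 before CYP71A15 and CYP71B22, and none before CYP71A14 and CYP71B23. The letters GAGAGA or their reverse complement were present in the windows of both CYP71A15 and CYP71A14 and in neither of the CYP71B windows.

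Across the family, 2 short motifs were counted in these 250-base windows on both strands. The telobox AAACCCTA, known from Polycomb response elements of Arabidopsis, was in 8 of 217 windows, or 3.69%, against 4.49% of all genes. It was in 7 of the 135 members marked by H3K27me3 and in 1 of the 82 others. The letters GAGAGA were in 18.9% of members against 20.6% of all genes, and in 20.0% of members with H3K27me3 against 17.1% of those without.

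Space between neighbours was covered less than the genes. In the 63 spaces inside clusters with no other gene, 14.0% of 64733 bp lay under H3K27me3, 4.76% under H2A.Z and 3.11% under H3K27ac. Over the bodies of clustered genes H3K27me3 covered 20.7% of bases. Of the spaces between 2 genes marked by H3K27me3, 16.3% of bases were covered, and of those beside 1 marked gene 16.2%. The 18 spaces between unmarked genes held 9095 bp, none of it under H3K27me3. No single H3K27me3 region reached across a whole space from one gene to the next, in 0 of 63 cases.

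Along the gene, H3K27me3 on P450s was highest well inside. The 100 bp step with the most cover was 800 to 900 bp from the start, at 29.6% of bases, whereas in genes of like length it was 500 to 600 bp, at 17.3%. H3K27ac was highest at 300 to 400 bp in both, at 23.7% in the family and 42.2% in genes of like length. Further in the order turned, and at 1000 to 1100 bp H3K27ac covered 19.0% of bases in the family and 13.4% in genes of like length. H3K4me3 reached 9.47% at 200 to 300 bp in the family and 20.1% at 400 to 500 bp in genes of like length. H2A.Z was alike in the place and height of its highest step, at 19.1% and 20.7% at 300 to 400 bp. At 1000 to 1100 bp it covered 14.8% of bases in the family and 9.39% in genes of like length.

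H3K27me3 also reached ahead of the start. In the 500 bp upstream it covered 16.7% of bases in the family and 7.53% in genes of like length. At least 200 bp of this window were covered in 42 of the 135 marked members and in 5 of the 82 others. In the first 500 bp of the gene, H3K27ac covered 17.9% of bases in the family and 34.6% in genes of like length.

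**Figure D5:**
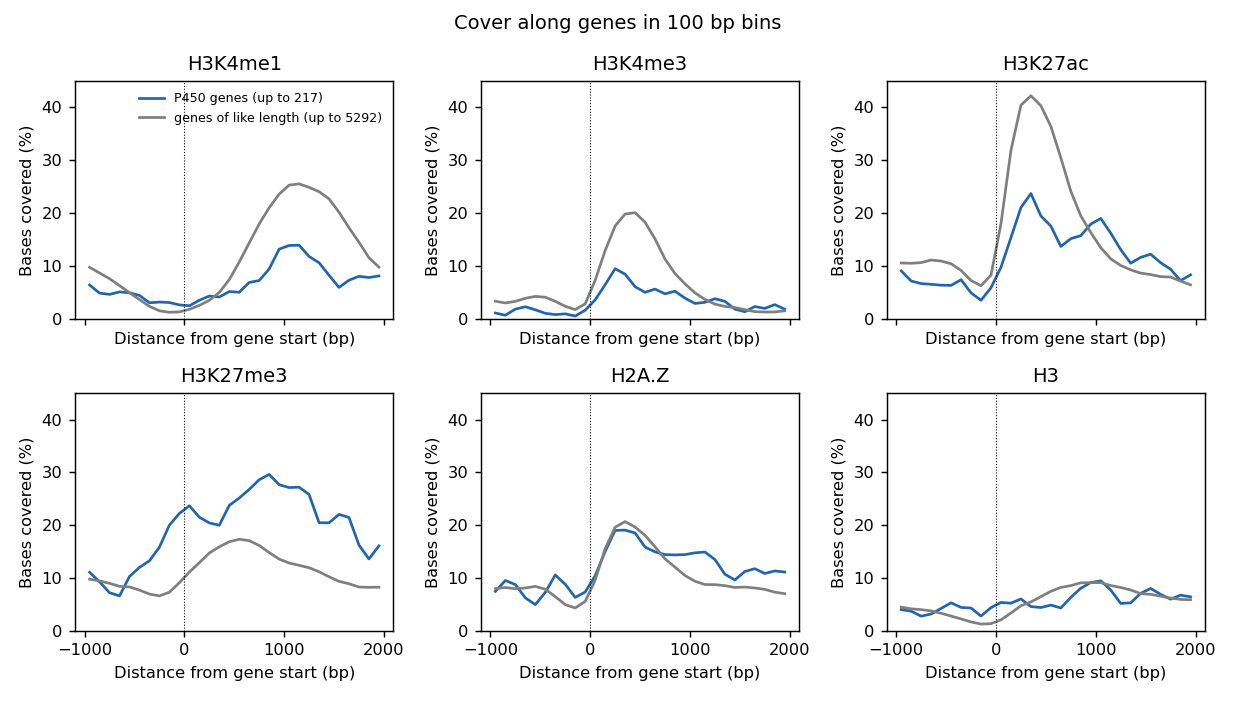
Percent of bases covered (vertical axis) by each target in 100 bp steps of distance from the annotated gene start (horizontal axis, bp), for the 217 P450 genes and the 5292 genes of like length. H3K27me3 in P450 genes peaks at 29.6% between 800 and 900 bp, above the like-length genes, and H3K27ac peaks at 23.7% between 300 and 400 bp, below them, but lies above them at 1000 to 1100 bp, at 19.0% against 13.4%.

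The stretch that codes for the heme-binding loop, with the cysteine that holds the iron, lies near the 3' end of P450 genes. An exact match to the P450 heme-binding signature was found in the translated coding sequence of 175 members, at a median of 1662 bp from the gene start and 88.0% of the coding sequence. The cysteine codon was TGT in 129 and TGC in 46. H3K27me3 touched 40 of these 175 stretches, or 22.9%, H2A.Z 14.9%, H3K27ac 12%, H3 9.14%, H3K4me1 8% and H3K4me3 2.29%. Over the whole length of all 217 members, these targets covered 22.5%, 13.1%, 13.5%, 5.98%, 7.82% and 3.94% of bases. A stretch counted as touched from 1 base, so the 2 kinds of share are not measured alike. For H3K27me3 the share at the site was near that of the whole genes. The 3 stretches below, from genes with H3K27me3 on the site, with H3K27me3 elsewhere in the gene and without H3K27me3, show the conserved site, with the cysteine codon in capitals, read from the RefSeq TAIR10.1 genome at chr1:83219-83248 on the minus strand for CYP78A8, chr1:5610897-5610926 on the plus strand for CYP79F1 and chr3:4939128-4939157 on the plus strand for CYP72A15.
CYP78A8: ttcgggtcgggtaagagggttTGCcctgga
CYP79F1: tttagcaccggtcgacgtggcTGCatcggt
CYP72A15: tttgcgtggggaccgaggataTGCataggc
H3K27me3 covered 21 of the 30 bases in CYP78A8 and none in CYP79F1, and H3K4me1 covered all 30 in CYP72A15.

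Other large families of specialized metabolism gave a scale for these shares. Of 40 genes with a BGLU symbol, which encode beta-glucosidases, 26 or 65% were marked by H3K27me3 and 35% by H3K27ac, close to the P450 shares for H3K27me3. Of 58 genes with a UGT symbol, which encode sugar transferases, 41.4% were marked by H3K27me3, near the 41.9% of all genes, and 62.1% by H3K27ac.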

How the data were processed

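Chromatin immunoprecipitation and sequencing (ChIP-seq) gave 1 library for each of 6 targets. The authors deposited each library as a list of called regions with chromosome, start and end in base pairs and no score, so no counts, signal or intervals could be derived and precision is unknown. The submitters' processing notes name TAIR10 as the build and list HOMER, deepTools 2.0, Bowtie2 and SAMtools 0.1.19. Region caller settings, control library and the treatment of reads with several matches were not given in the sources used here.

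Starts were read as counted from 0, and regions off chromosomes 1 to 5 were left out. Covered bases per gene were computed in Python 3.11.15 with NumPy 2.4.6 between annotated ends in RefSeq TAIR10.1. A gene with at least 200 bp covered was called marked. Neighbouring coding sequences were aligned with Biopython 1.88 (match 1, mismatch -1, gap opening -4, extension -0.5); nucleotide identity replaced the protein identity first planned, because no protein table was used here. Signature matches were sought in translated coding sequences. The computing of cover was tested on simulated regions and the building of clusters on a planted gene order. The other steps were not tested in this way.

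Named genes were the 5 members with the most cover by each target, members of clusters of 4 or more, members of the role lists, the most different neighbours, and a few singled out after their values were seen: those under no region or all 6 targets, CYP82F1, and CYP89A9. The members and lists were chosen with earlier results of these data known. Alternatives were other minimum cover, regions above the smallest size, an upstream extension, other cluster definitions and, chosen after seeing the data, leaving out 22 members with overlapping genes or repeated sequence.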

Additional observations from a re-analysis of the deposited data

How the results depend on the processing

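Of 43 alternatives to the counts above, 36 stayed within 1.5 times of the value given. With at least 400 bp required, H3K4me1 marked 36 members (against 35.7% of all genes, with that background in brackets from here), H3K4me3 16 (12.9%), H2A.Z 68 (20.9%) and H3 19 (14.8%). With 1 bp required, H3K4me3 marked 64 (40.1%). Without regions of the smallest size, H3K4me1 marked 49 (39.2%) and H3 44 (19.8%). The causes were not tested beyond the construction of these settings, in which fewer or more bases sufficed. H3K27me3 marked 104 members at 400 bp, against 21.8% of all genes, 108 without smallest regions, against 26%, and 124 of 195 members without the 22 with overlapping genes or repeated sequence, a choice made after seeing the data. Clusters that were uniform for H3K27me3 numbered 15 to 21, and those for H3K27ac 15 to 21. No paired analysis was possible because each target had 1 library. With 1 library a target and unknown depth, an absent region does not show that a mark was absent, and no difference here has a replicate check.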

Other observations

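The 6 nuclear P450 pseudogenes that the annotation names with a CYP symbol are not members. H3K27me3 marked 4 of them, CYP71B33 with 546 bp, CYP51G2 with 468 bp, CYP71B27 with 301 bp and CYP96A7 with 223 bp. H3K27ac marked CYP51G2 with 358 bp and CYP71B18 with 263 bp. CYP71B27 lies just before the CYP71B2 cluster, whose 4 intact genes had no H3K27me3. CYP71B33, near the intact genes CYP71B26 and CYP71B34, also carried 521 bp of H2A.Z. CYP705A16, which overlaps CYP705A15, carried 571 bp of H3K4me1 and no H3K27me3.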
